A study of Mus musculus with 6 samples.

Results

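Glycolysis enzyme genes were examined in renal tissue of Dkk3-/- mice and of C57Bl/6 mice, 3 animals a genotype. All 6 kidneys had been obstructed for 7 days by tying of the ureter (unilateral ureteral obstruction, UUO). The genes were the 10 with the symbols Hk1, Hk2, Pfkl, Pfkp, Pfkfb3, Aldoa, Pgk1, Eno1, Pkm and Ldha in a deposited table of 18421 genes, chosen by symbol. Pgk1 stood on 2 rows, so the 10 symbols gave 11 rows. The operation injures the tubules of the kidney upstream, and both genotypes had it, so the comparison is of knockout with wild type within obstruction and says nothing of the effect of obstruction itself. The product of Dkk3 is secreted and belongs to the dickkopf family, and the study asked how its loss alters the obstructed kidney. Both groups carry C57Bl/6 as their background strain in the labels, which give neither age nor sex, nor how the knockout allele was made and backcrossed.

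Glycolysis splits glucose into pyruvate and yields ATP without oxygen. Hexokinases trap glucose as a phosphate ester, phosphofructokinase makes the committed step, and aldolase, phosphoglycerate kinase, enolase and pyruvate kinase carry the lower part of the pathway. Lactate dehydrogenase then turns pyruvate into lactate and regenerates NAD+. In a healthy kidney the proximal tubule burns fatty acids and makes glucose, while distal segments, immune cells and injured tubule cells rely more on glycolysis, and hypoxia-inducible factors raise transcription of many of these enzymes.

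Of the 10 genes, 1 passed an adjusted p of 0.05, Ldha, which was lower in the Dkk3 knockout, and none was called higher. The background over all genes, from the authors' deposited table, was 2.06% called, with 0.89% lower and 1.17% higher. Among the genes at an average of 10 CPM or more, a depth-scaled read level that all 11 rows reached, 1.83% were called, with 0.915% lower and 0.915% higher. Ldha was also the 1 row with an unadjusted p under 0.05, a level that 10.6% of all genes reached, 4.71% as lower. The called gene acts at the last, lactate-forming step, and no earlier step had a call. The median log2 fold change was -0.06 over the 11 rows, and -0.02 when the second Pgk1 row was left out, against 0.01 over all genes. The values are the authors' own test results. No level per mouse or per genotype was at hand, so whether single animals overlapped could not be seen and the depth of each library is unknown. Fold changes are knockout over wild type, a direction read from Dkk3 itself, which showed a log2 fold change of -4.43 (adjusted p = 2.98e-67, from the authors' deposited table). The kidney marker genes Umod of the thick limb and Slc34a1 of the proximal tubule averaged 4039 and 1051 CPM in the authors' deposited table. In whole tissue, fewer cells of a type and less RNA per cell cannot be told apart.

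The promoters of 3 of these genes are shown because hypoxia-inducible factors bind a core, ACGTG, that many glycolysis promoters carry. Each runs from 250 bases before to 50 bases after an annotated start (RefSeq, GRCm38.p6), 5′ to 3′ on the strand of the gene, with the core on either strand (ACGTG or CACGT) in capitals. Ldha was the 1 called gene, Pgk1 is the gene listed on 2 rows, and Hk2 is the inducible hexokinase.
Ldha, chr7:46845554-46845853, plus strand: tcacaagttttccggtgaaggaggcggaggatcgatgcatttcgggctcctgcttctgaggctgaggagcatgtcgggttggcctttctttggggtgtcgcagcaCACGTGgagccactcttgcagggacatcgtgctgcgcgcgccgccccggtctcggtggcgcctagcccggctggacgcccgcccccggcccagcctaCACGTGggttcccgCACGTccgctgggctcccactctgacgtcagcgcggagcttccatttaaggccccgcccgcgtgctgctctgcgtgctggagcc
Pgk1, chrX:106186850-106187149, plus strand: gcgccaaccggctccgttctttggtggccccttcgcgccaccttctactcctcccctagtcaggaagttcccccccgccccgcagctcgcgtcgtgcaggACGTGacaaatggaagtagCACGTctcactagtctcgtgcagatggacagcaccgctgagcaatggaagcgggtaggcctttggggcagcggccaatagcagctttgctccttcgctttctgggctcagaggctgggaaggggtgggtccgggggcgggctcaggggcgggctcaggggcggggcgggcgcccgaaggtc
Hk2, chr6:82774405-82774704, minus strand: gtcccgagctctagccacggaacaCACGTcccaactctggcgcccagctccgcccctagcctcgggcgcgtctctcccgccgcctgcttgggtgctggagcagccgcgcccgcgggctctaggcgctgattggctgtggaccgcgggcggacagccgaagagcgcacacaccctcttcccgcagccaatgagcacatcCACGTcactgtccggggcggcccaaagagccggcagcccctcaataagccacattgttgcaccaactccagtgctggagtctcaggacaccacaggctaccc

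Of the 10 genes, 7 had the core in at least 1 of their promoters, Aldoa, Hk1, Hk2, Ldha, Pfkfb3, Pgk1 and Pkm, and 3 did not, Eno1, Pfkl and Pfkp. Of all 27025 genes with a listed promoter, 21.8% had it in at least 1. By promoter, 9 of the 18 listed for the 10 genes held it, against 19.6% of all 32851 promoters of the same length. The share was 22.8% of the 17877 promoters of tested genes. Among the 9 are overlapping promoters of Aldoa that hold the same site. In the Ldha promoter the core occurs 5 times, 4 of them as the 2 strands of 2 CACGTG sites, which also match the E-box of Myc and carbohydrate response factors. CACGTG was present in 2 of the 18 promoters of the 10 genes (11.1%), 1 of Ldha and 1 of Pfkfb3, which was not called. It was present in 7.15% of all promoters. A second annotated promoter of Ldha, at chr7:46846832-46847131, held no core. A match of letters is a description of sequence and shows no binding, and 6 of the 7 genes with the core were not called.

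Average levels over all 6 mice spanned a wide range, and of the 10 genes Aldoa, Pgk1, Ldha and Pkm stood highest. Per kilobase of annotated exon, Aldoa averaged 185 CPM per kb, Pgk1 147, Ldha 125, Pkm 58.8, Eno1 19.5, Hk1 13.6, Pfkl 10.1, Pfkp 8.3, Pfkfb3 4.89 and Hk2 2.33, from the CPM in the authors' deposited table. Neighbours in this order cannot be told apart here, since the spread between mice is unknown and the exon length counts all annotated isoforms. The heart-type lactate dehydrogenase gene Ldhb stood above these 10 at 901 CPM per kb, from the CPM in the authors' deposited table.

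How reads with several matches were counted is not given in the sources used here. Annotated transcripts were divided into distinct 50 nt stretches, as long as a read, and 68.0% of those in Pgk1, 49.5% in Eno1, 23.7% in Pkm, 10.4% in Ldha and 8.46% in Aldoa also occur in transcripts of other genes. Eno1b holds 48.4% of the stretches of Eno1 and is in the authors' deposited table at 3.64 CPM. Aldoart1, which holds 3.92% of the stretches of Aldoa, is in the authors' deposited table at 27.1 CPM. The share was at or under 0.512% for Pfkfb3, Pfkl, Hk1, Hk2 and Pfkp. The 14 genes that share stretches with Ldha are processed pseudogenes, copies made from spliced messenger RNA, and none of them is in the deposited table. Gapdh, the enzyme before phosphoglycerate kinase, was at 4.45 CPM in the authors' deposited table and shared 58.4% of its stretches with 218 other genes. The part of shared reads in its level was not tested. Gapdh itself showed a log2 fold change of -0.14 (adjusted p = 0.944, from the authors' deposited table).

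**Figure D1:**
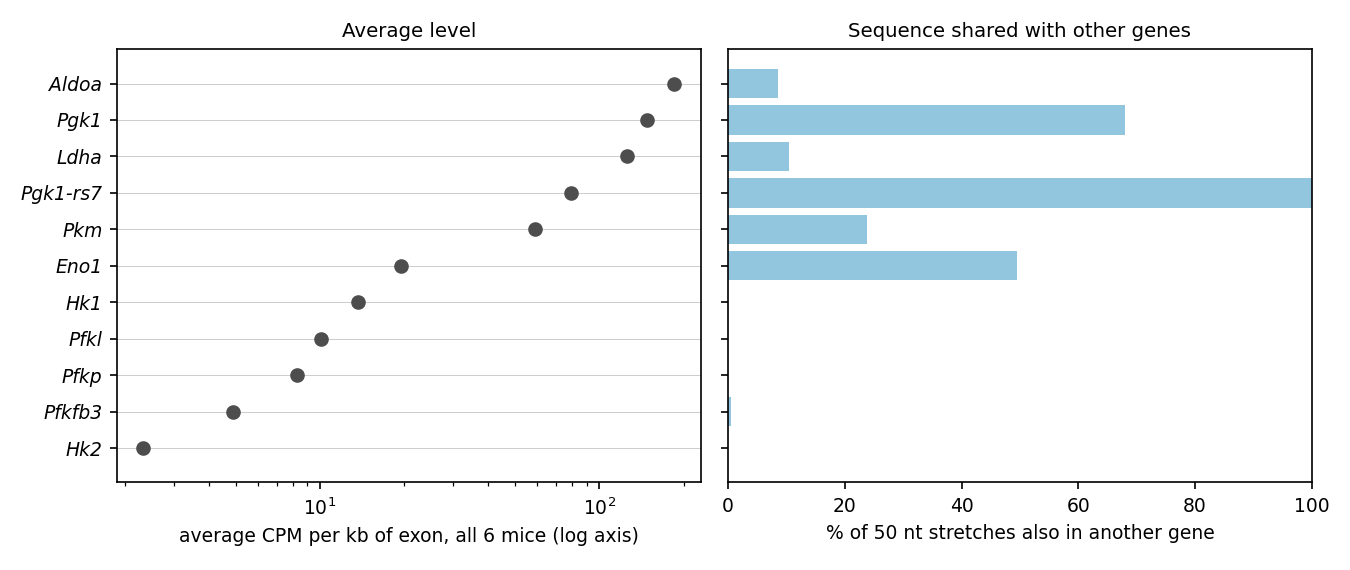
Average level of each of the 11 rows in CPM per kb of exon over all 6 mice (left, log axis) and the percentage of its 50 nt stretches that also occur in another annotated gene (right, bars from 0). Aldoa is highest at 185 CPM per kb and Hk2 lowest at 2.33, and all stretches of Pgk1-rs7 are shared.

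The hexokinases, which commit glucose to the cell, stood on opposite sides of 0 without passing the test. Hk1, the ubiquitous form (ENSMUSG00000037012, chromosome 10, 62268855 to 62379908, GRCm38), showed a log2 fold change of -0.21 with an approximate 95% interval of -0.44 to 0.02 (adjusted p = 0.563, from the authors' deposited table). Hk2, the form that growth signals and hypoxia induce (ENSMUSG00000000628, chromosome 6, 82725025 to 82774454), showed a log2 fold change of 0.19 with an interval of -0.15 to 0.54 (adjusted p = 0.79, from the authors' deposited table). Whether the 2 genes differed from each other was not tested, because their values in single mice are not at hand. Of the other hexokinases, Hk3, the form of myeloid cells, showed a log2 fold change of 0.34 (adjusted p = 0.784) at 4.42 CPM in the authors' deposited table.

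Phosphofructokinase genes showed no call. Pfkl, the liver-type subunit (ENSMUSG00000020277, chromosome 10, 77986947 to 78010083), showed a log2 fold change of -0.12, interval -0.37 to 0.12 (adjusted p = 0.828, from the authors' deposited table). Pfkp, the platelet-type subunit (ENSMUSG00000021196, chromosome 13, 6579768 to 6648777), stood at 0.03, interval -0.20 to 0.27 (adjusted p = 0.983, from the authors' deposited table). Pfkp overlaps the peptidase gene Pitrm1 on the opposite strand, and the use of strand in counting is not given in the sources used here. Pfkfb3, whose product makes the fructose bisphosphate that activates phosphofructokinase (ENSMUSG00000026773, chromosome 2, 11471433 to 11554077), stood at 0.07, interval -0.25 to 0.39 (adjusted p = 0.963, from the authors' deposited table).

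The genes of the lower pathway were close to 0. Aldoa, the aldolase of muscle and most other cells (ENSMUSG00000030695, chromosome 7, 126795234 to 126800751), showed a log2 fold change of -0.06, interval -0.33 to 0.22 (adjusted p = 0.968, from the authors' deposited table). Eno1, the ubiquitous enolase (ENSMUSG00000063524, chromosome 4, 150236721 to 150248879), had 0.03, interval -0.19 to 0.25 (adjusted p = 0.985, from the authors' deposited table). Pkm (ENSMUSG00000032294, chromosome 9, 59656368 to 59679375) had 0.01, interval -0.27 to 0.29 (adjusted p = 0.9998, from the authors' deposited table), and its sign turned to -0.0018 when fold changes were centred on the median gene. Pkm makes the isoforms M1 and M2 by alternative splicing of a pair of exons, and a value per gene does not separate them. Over the 9 uncalled genes and the second Pgk1 row, the intervals reached from -0.44 to 0.54 on the log2 scale, so a change beyond 1.45-fold lay outside each of them. These intervals rest on a standard error approximated from the authors' likelihood-ratio score, 0.11 to 0.18 on the log2 scale for the 11 rows, and take the fitted spread between mice as known.

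Both rows listed as Pgk1 share the aligned coding sequence. The first (ENSMUSG00000062070, chromosome X, 106187100 to 106203699) is the phosphoglycerate kinase gene, the first ATP-making step, with a log2 fold change of -0.13, interval -0.40 to 0.14, at 331 CPM (adjusted p = 0.836, from the authors' deposited table). The second (ENSMUSG00000066632, chromosome 12, 10898986 to 10900240) is annotated as Pgk1-rs7, a processed pseudogene of the first, with a log2 fold change of -0.15, interval -0.38 to 0.08, at 99.2 CPM (adjusted p = 0.757, from the authors' deposited table). All 1206 stretches of 50 nt in Pgk1-rs7 also occur in Pgk1, and the 1250 aligned bases of Pgk1 coding sequence were identical in both. These stretches make up 67.9% of those in Pgk1, and the rest of Pgk1 does not occur in Pgk1-rs7. The stretch below, 60 bases of the first coding exon of Pgk1, shows what a read from this part of either would hold, with no base in capitals because none differs.
Pgk1, chrX:106187252-106187311, plus strand: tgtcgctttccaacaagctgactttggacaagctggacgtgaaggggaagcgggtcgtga
Pgk1-rs7, chr12:10900181-10900240, minus strand: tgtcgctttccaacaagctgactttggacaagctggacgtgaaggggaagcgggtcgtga
The 2 rows therefore cannot be taken as separate measurements, and the level of either is uncertain.

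**Figure D2:**
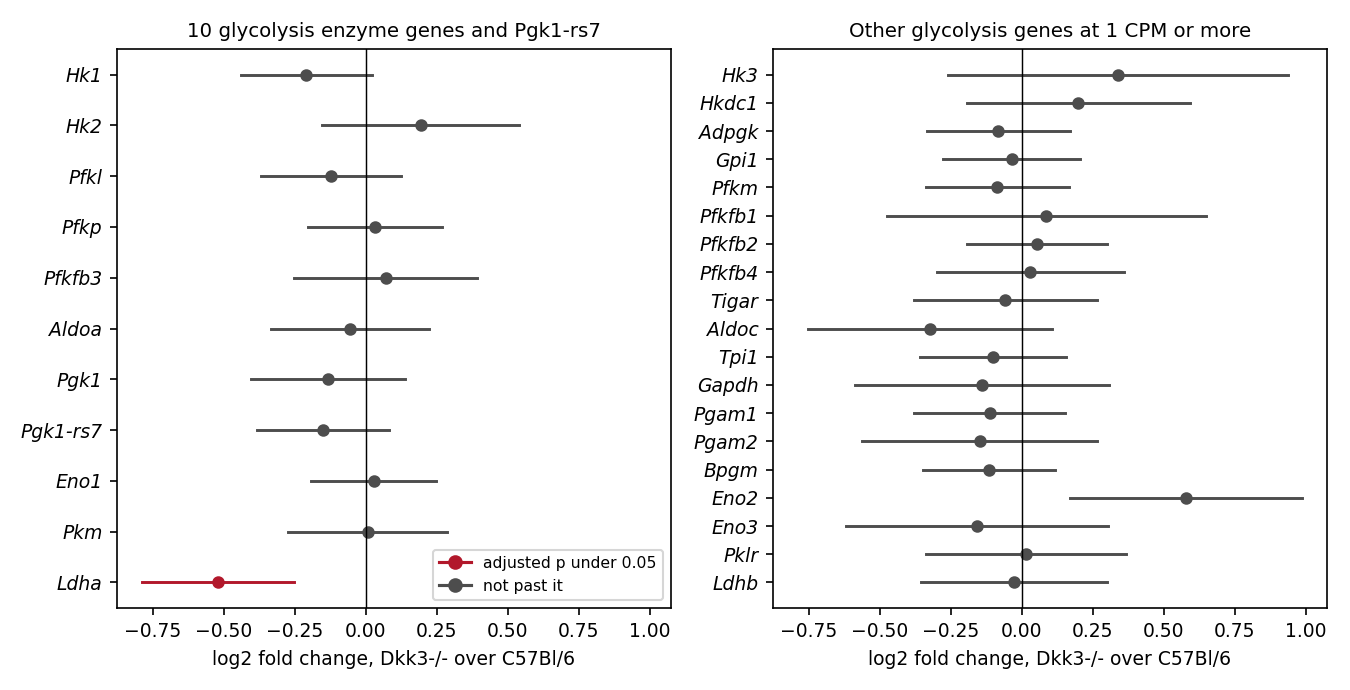
Log2 fold change of Dkk3-/- over C57Bl/6 (points) with its approximate 95% interval (lines) for the 11 rows (left) and for other reported glycolysis genes at 1 CPM or more (right). Ldha, in red, is the 1 gene past an adjusted p of 0.05, at -0.52, and every other interval on the left crosses 0.

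Ldha encodes the muscle-type subunit of lactate dehydrogenase, which favours the making of lactate (ENSMUSG00000063229, chromosome 7, 46841475 to 46855627). It averaged 415 CPM in the authors' deposited table. Its log2 fold change was -0.52, interval -0.79 to -0.25, or 0.698 times the wild-type level in the knockout (adjusted p = 0.0123, from the authors' deposited table). It was 215th of 18421 genes by p. The call ended when the score was referred to an F distribution, which allows for the small number of mice (adjusted p = 0.166), and the fall did not reach 1.5-fold. Ldhb, the heart-type subunit that pairs with Ldha in the enzyme's tetramers, showed a log2 fold change of -0.03, interval -0.35 to 0.30 (adjusted p = 0.996, from the authors' deposited table).

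Ldha lies on the chromosome of the deleted gene, 65.3 Mb from Dkk3, in a stretch where many genes differed between the genotypes. Among the 30 genes in the table within 1 Mb of Ldha, 8 were called and all 8 were lower in the knockout, 26.7% against 2.06% of all genes, and the median log2 fold change of the 30 was -0.36. Within 5 Mb, 36 of 185 genes were called, 12 higher and 24 lower, or 19.5%. Chromosome 7 as a whole had 7.27% of its 1417 genes called, against 1.62% of 16897 genes on all other chromosomes. Neighbours are named here after their values were seen. The 8 calls averaged, in CPM, 53.1 for Hps5, 8.7 for Uevld, 8.28 for Ccdc114, 1.19 for Saa1, 1.01 for Tph1, 0.638 for Saa2, 0.376 for Kcnj11 and 0.26 for Saa4. Several of the 8 were thus at low levels, and Saa1, Saa2 and Saa4 belong to the same serum amyloid family. Hps5, a subunit of a lysosome biogenesis complex whose gene lies 45.4 kb from Ldha, showed a log2 fold change of -0.78 (adjusted p = 2.06e-08, from the authors' deposited table). On the other side Uevld, 67.6 kb away, had -0.74 (adjusted p = 0.00505, from the authors' deposited table).

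Other called neighbours changed by much more than Ldha. The serum amyloid gene Saa1, 98.5 kb away, showed a log2 fold change of -4.08 at 1.19 CPM in the authors' deposited table. The ferritin light chain gene Ftl1, 1382 kb away, had -4.78, and Htatip2, 2903 kb away on the other side, had -3.96 in the authors' deposited table. Calls within 5 Mb went both ways, 24 lower and 12 higher. Among the higher were Tead2, 1608 kb away, at 1.52 and Dhdh, 1353 kb away, at 1.23 in the authors' deposited table. Nearer to Ldha, Gtf2h1, 17.7 kb away, had -0.24 and an unadjusted p of 0.0424 (adjusted p = 0.445, from the authors' deposited table). Spty2d1, 135 kb away, stood above 0 at 0.29 (adjusted p = 0.202, from the authors' deposited table). Of the 30 genes within 1 Mb, 20 were below 0 and 10 above. The fall of Ldha therefore stands in a stretch of chromosome 7 that differs between these mice at many genes, and a difference that goes with Dkk3 loss cannot be told apart from one that goes with the stretch. Aldoa is on chromosome 7 too, 14.6 Mb from Dkk3, with 4 of 78 genes called within 1 Mb (5.13%), and was not called.

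**Figure D3:**
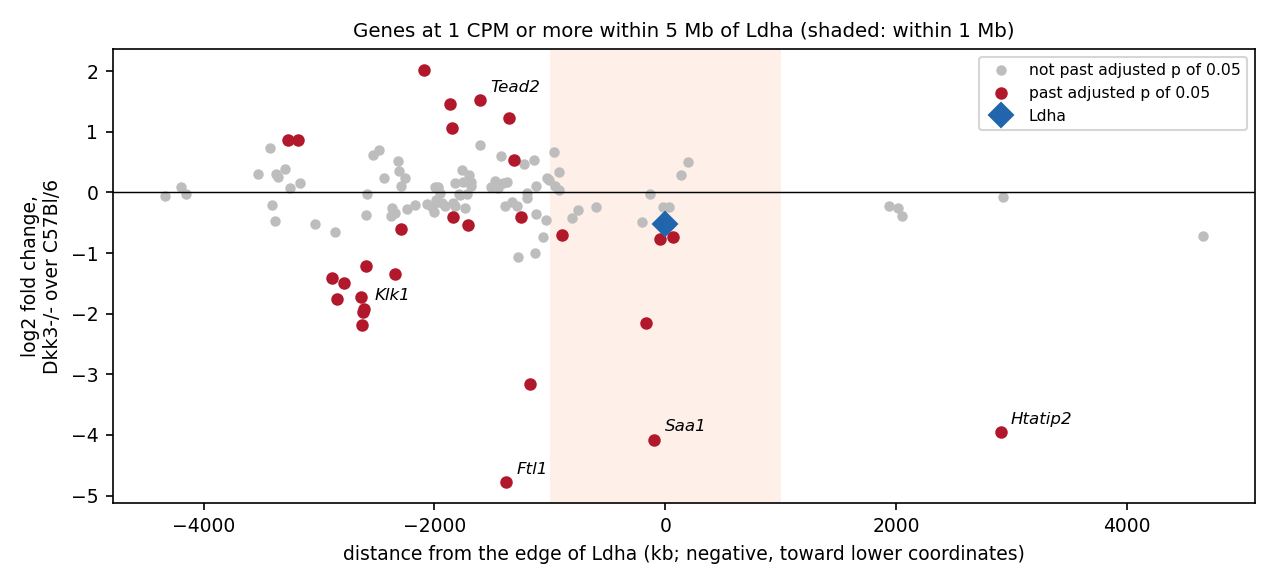
Log2 fold change of Dkk3-/- over C57Bl/6 against distance from the edge of Ldha in kb, for genes at 1 CPM or more within 5 Mb. Red points are past an adjusted p of 0.05, the blue diamond is Ldha at -0.52, and in the shaded 1 Mb on either side the red points are all below 0.

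The rest of the glycolysis pathway, 22 measured genes of a list of 23, gave no call in edgeR's test, with a median log2 fold change of -0.05 and 1 gene at an unadjusted p under 0.05, against 10.6% of all genes. That gene was the neuronal enolase gene Eno2, with a log2 fold change of 0.58, interval 0.17 to 0.99 (adjusted p = 0.144), at 8.51 CPM in the authors' deposited table. The brain-type aldolase gene Aldoc had -0.32 (adjusted p = 0.711, from the authors' deposited table). The steps between the 10 genes were close to 0, with Gpi1 at -0.04, Tpi1 at -0.10 and Pgam1 at -0.11 on the log2 scale (adjusted p of 0.98, 0.899 and 0.886 in the authors' deposited table). In the authors' own Gene Ontology table the term glycolysis had 1 lower and no higher gene among 55 (p = 0.395 for lower), and lactate metabolic process had 1 lower gene among 7 (p = 0.0619, adjusted p = 1).

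Glucose entry gave no call either, with 12 transporters measured, none called and none at an unadjusted p under 0.05 by edgeR. Slc2a1, the transporter that hypoxia induces, showed a log2 fold change of -0.20 (adjusted p = 0.609) and Slc2a3, the transporter of neurons and leukocytes, 0.56 (adjusted p = 0.505, from the authors' deposited table). The sodium-coupled transporter gene Slc5a1 had -0.22 (adjusted p = 0.757) and the fructose transporter gene Slc2a5 -0.22 (adjusted p = 0.758, from the authors' deposited table). Among 9 genes that carry lactate and pyruvate across membranes none was called and 3 had an unadjusted p under 0.05 by edgeR. Those were the lactate uptake gene Slc5a8 of the proximal tubule (-0.46, adjusted p = 0.136), the mitochondrial pyruvate carrier gene Mpc1 (-0.31, adjusted p = 0.268) and the lactate carrier gene Slc16a1 (0.52, adjusted p = 0.307), as log2 fold changes in the authors' deposited table. Mpc2, the partner of Mpc1 in the mitochondrial carrier, had -0.19 (adjusted p = 0.687, from the authors' deposited table).

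Pyruvate oxidation gave 1 call among 11 genes, and it was upward. Pdk4, the kinase that switches off pyruvate dehydrogenase and is induced in fasting, rose by 0.85 on the log2 scale, interval 0.36 to 1.35 (adjusted p = 0.0397, from the authors' deposited table). This call ended without chromosome 7 (adjusted p = 0.0515). That setting left out the 1417 genes of chromosome 7, of which 103 were called, and 107 genes without a position. The Pdk4 call also ended with scores divided by their inflation over a chi-square distribution, a factor of 1.09 (adjusted p = 0.0665). With the F distribution it ended too (adjusted p = 0.244). The other 10 genes of the list were all below 0 and uncalled, with Pdk1 at -0.31 (adjusted p = 0.307), Dlat at -0.25 (adjusted p = 0.496) and Pdk3 at -0.19 (adjusted p = 0.725, from the authors' deposited table). All 16 citric acid cycle genes were below 0 with a median log2 fold change of -0.14, against 48.2% below 0 and a median of 0.01 among genes at 10 CPM or more. None of the 16 was called and none had an unadjusted p under 0.05 by edgeR. Among the smallest p were those of Idh3a (-0.23, adjusted p = 0.543), Sdhd (-0.21, adjusted p = 0.663) and Sucla2 (-0.19, adjusted p = 0.706), as log2 fold changes in the authors' deposited table.

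Gluconeogenesis, the reverse pathway by which the proximal tubule makes glucose, had a median log2 fold change of -0.36 over 8 genes, with 1 called lower. Pck1, its rate-setting carboxykinase, fell by a log2 fold of 1.05 (adjusted p = 0.0224, from the authors' deposited table), a call that the F distribution ended (adjusted p = 0.202). The glucose 6-phosphate carrier gene Slc37a4 (-0.45, adjusted p = 0.164), the pyruvate carboxylase gene Pcx (-0.45, adjusted p = 0.495) and Fbp1 (-0.40, adjusted p = 0.508) did not pass in the authors' deposited table.

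Side branches gave no call. Over 8 pentose phosphate genes the median log2 fold change was 0.03, and H6pd had 0.34 (adjusted p = 0.407, from the authors' deposited table). Over 13 genes of glycogen and hexose side paths the median was -0.20, with Gfpt2 at 0.65 (adjusted p = 0.23) and Pgm1, listed under the name Pgm2, at -0.26 (adjusted p = 0.352, from the authors' deposited table). Over 5 serine synthesis genes the median was -0.11, and the mitochondrial serine hydroxymethyltransferase gene Shmt2 came nearest to the threshold with -0.43 (adjusted p = 0.0586, from the authors' deposited table). Of these 3 lists, 1, 3 and 1 genes had an unadjusted p under 0.05 by edgeR.

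**Figure D4:**
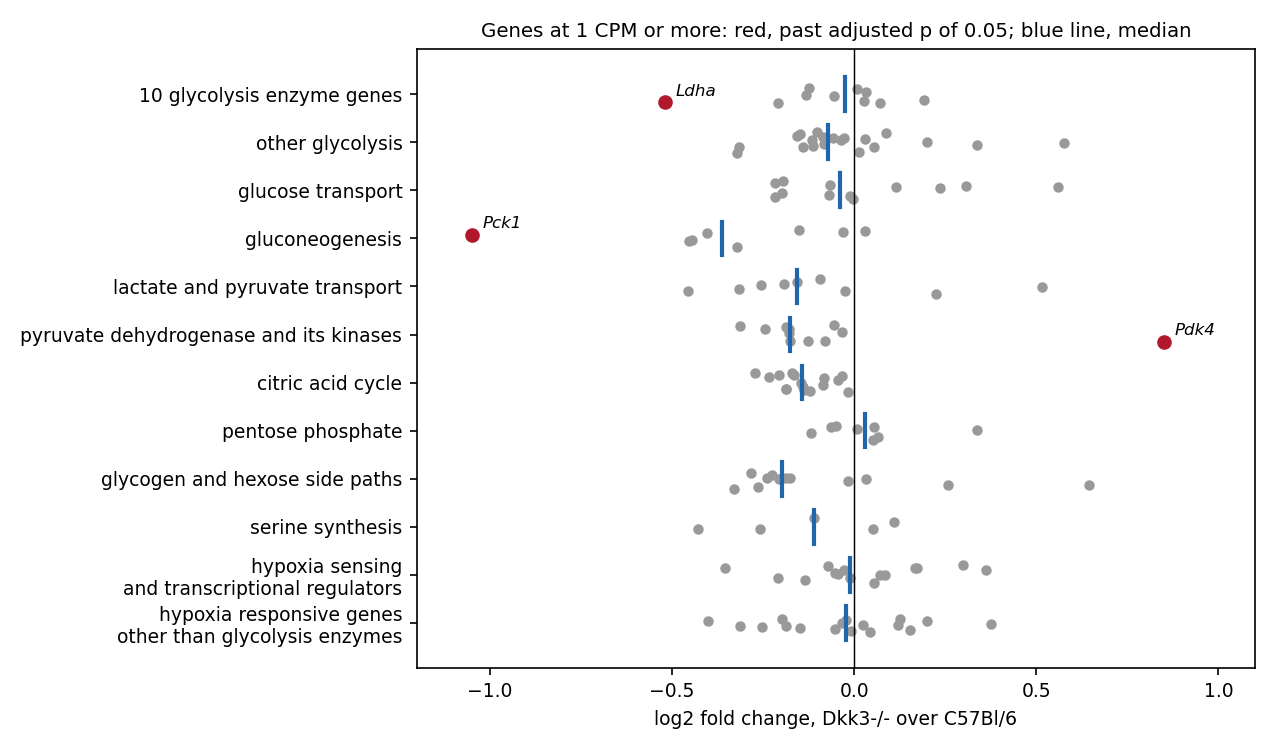
Log2 fold change of Dkk3-/- over C57Bl/6 for genes at 1 CPM or more in the 10 glycolysis enzyme genes and 11 lists of neighbouring pathways (points, spread vertically for legibility), with the median of each as a blue line. Ldha at -0.52, Pck1 at -1.05 and Pdk4 at 0.85 are the genes past an adjusted p of 0.05.

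Regulators of glycolysis did not pass the test. Of 15 genes for oxygen sensing and transcriptional control none was called and 3 had an unadjusted p under 0.05 by edgeR, the mitochondrial biogenesis coactivator gene Ppargc1a (-0.35, adjusted p = 0.258), the carbohydrate response factor gene Mlxipl (0.36, adjusted p = 0.295) and Myc (0.30, adjusted p = 0.374), as log2 fold changes in the authors' deposited table. Hif1a had -0.21 (adjusted p = 0.541, from the authors' deposited table). Of 18 hypoxia-responsive genes other than glycolysis enzymes none was called and 2 had an unadjusted p under 0.05 by edgeR, with a median log2 fold change of -0.01. Those were the carbonic anhydrase gene Car12, at -0.40 (adjusted p = 0.17), and Pdk1, at -0.31 (adjusted p = 0.307, from the authors' deposited table). The list shares Pdk1 and Slc2a1 with lists given above, and Egln3 with the 15 genes, so these are not further results. Next by p was Ndrg1 at 0.38 (adjusted p = 0.521, from the authors' deposited table). These are RNA levels, and the factors of the hypoxia response are set mainly through protein stability, which was not measured.

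Markers of cell types moved in the same samples. All 7 measured T cell markers were called higher (median log2 fold change 1.52), as were 2 of 6 B and plasma cell markers (median 0.87). The 10 macrophage and dendritic markers had a median of 0.43, each above 0 and uncalled. On the other side 7 of 11 collecting duct markers were called lower (median -0.62), 1 of 8 loop and distal tubule markers (median -0.32) and 2 of 6 urothelial markers (median -2.17), while proximal tubule markers had a median of -0.41 with none of 10 called. No member of the podocyte (5 measured, median 0.16), endothelial (7, median 0.12), fibroblast and pericyte (8, median 0.22), neutrophil (6, median 0.30) and red cell (6, median -0.11) lists was called. Unadjusted p under 0.05 in edgeR's test were reached by 5 macrophage markers and 1 neutrophil marker, all above 0. The same level was reached by 3 proximal tubule, 1 fibroblast and 2 red cell markers, all below 0. The fibroblast marker thus went against the median of its list, and 1 of the 2 red cell markers is also on the collecting duct list. No podocyte or endothelial marker reached this level. Levels of these markers per genotype are not at hand, and their part in the values of Ldha and the other glycolysis genes was not tested.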

How the data were processed

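RNA of renal tissue was sequenced as single 50 nt reads on a HiSeq instrument, per the labels. Genome build mm10 and edgeR, with no version, come from the submitters' processing notes. The aligner, the counter, its use of strand and any low-count filter were not given in the sources used here. Per the file headers, the deposited table lists 18421 genes with their log2 fold change, mean log2 CPM, likelihood-ratio score, p-value and adjusted p-value (FDR). No file gave counts per sample, so the planned quasi-likelihood fit gave way to the authors' own test, as laid down for that case. The deposited p-values equalled a chi-square test of the score with 1 degree of freedom, and the FDR equalled the Benjamini-Hochberg value, both within a relative 0.0001 for all 18421 genes. The Gene Ontology sheet gives gene numbers and p-values as deposited.

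Computed here were the approximate standard error (fold change over the square root of the score), 95% intervals as 1.96 errors on either side, CPM per kb of GENCODE vM21 union exon (GRCm38, the assembly of mm10; 18314 genes had a position), shared 50 nt stretches and promoter matches. The 3 animals a genotype are labelled biological replicates. The members and all lists were chosen with earlier results of these data known. Named genes were the 10 members and, of each pathway list, those called and up to 4 with the smallest p; some of these are not reported here. Gapdh, Ldhb, Gpi1, Tpi1, Pgam1, Umod, Slc34a1 and the chromosome 7 neighbours lie outside that rule and were named after their values were seen. Intervals, F tests and adjustment were run on simulated scores with normal errors. No counts or mice were simulated, so this checked the arithmetic and not whether the error model holds here. Python 3.11.15, pandas 2.3.3, numpy 2.4.6, scipy 1.17.1 and matplotlib 3.10.9 were used.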

Additional observations from a re-analysis of the deposited data

How the results depend on the processing

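No paired analysis was possible because no file used here holds values per sample, and for the same reason leaving out each mouse and DESeq2 size factors were not run. Over all genes, 164 were called lower and 215 higher. These became 86 and 107 at a threshold of 0.01, 41 and 40 with an F distribution (14 degrees of freedom, of which 10 are assumed as prior and 4 are residual), 89 lower without chromosome 7, and 333 higher at a threshold of 0.1. The 1 lower call among the glycolysis enzyme genes, Ldha, became 0 at a threshold of 0.01, with the F distribution, without chromosome 7 (which removes Ldha and Aldoa) and with a fold change of at least 1.5. It remained at a threshold of 0.1, at 1 CPM or more (adjusted p = 0.0106), with scores divided by their inflation factor of 1.09 (adjusted p = 0.0235) and after centring on the median of 0.0097 (adjusted p = 0.0101). No member was called higher under any of the 8 alternatives. Of 134 pathway genes, 1 lower call became 2 at a threshold of 0.1 and after centring, and 0 at 0.01 and with the F distribution. The 1 higher call became 0 at 0.01, with the F distribution, with the inflation factor and without chromosome 7. Centring turned Pkm to -0.0018, the 1 change of sign among the named genes. Whether calls of this size would hold in every mouse, and the depth behind them, are unknown.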
